A study of Mus musculus with 9 samples.

Results

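Integrins are the cell-surface receptors that hold a cell to its matrix, and 10 integrin genes were followed here in the anterior lens capsule of mice. The capsule is a thick basement membrane that wraps the lens, and the lens epithelium lies on its inner face in front. The genes were chosen by their symbols, Itga2, Itga3, Itga5, Itga6 and Itgav for alpha chains and Itgb1, Itgb3, Itgb4, Itgb5 and Itgb8 for beta chains. They are 10 of the 17527 gene symbols in the deposited tables. RNA sequencing gave 9 libraries, 3 each for young controls, aged controls and aged mice treated with EGCG (epigallocatechin gallate, a catechin of green tea). The sources used here do not give strain, sex, age, dose, route or duration of dosing, nor how controls were handled. No label says whether libraries of the same group are from different animals, so p-values here reflect spread among libraries that may be technical replicates.

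An integrin is a dimer of 1 alpha and 1 beta chain, and the pair decides the ligand. The alpha 3 and alpha 6 chains pair with beta 1 to bind laminin, a main component of the lens capsule, and alpha 6 with beta 4 forms the integrin of hemidesmosomes. The alpha v chain pairs with beta 1, beta 3, beta 5, beta 6 or beta 8 and reads the RGD motif of fibronectin, vitronectin and latent TGF-beta, a cytokine linked to the conversion of lens epithelial cells to myofibroblasts. The alpha 5 chain with beta 1 is a fibronectin receptor, and alpha 2 with beta 1 binds collagen.

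The 10 genes lie on 7 mouse chromosomes and are protein coding in the GENCODE annotation of build GRCm38. Itgav lies at chr2:83724397-83806916 on the plus strand and Itga6 at chr2:71745616-71858416, also on the plus strand. Itga3 lies at chr11:95044474-95076801 on the minus strand, and Itgb4 (chr11:115974709-116008412) and Itgb3 (chr11:104608000-104670476) lie on the plus strand of the same chromosome. Itgb1 lies at chr8:128685654-128733200 and Itgb5 at chr16:33829665-33949338, both on the plus strand. Itgb8 (chr12:119158022-119238802), Itga2 (chr13:114833081-114932100) and Itga5 (chr15:103344286-103366763) are on the minus strand. Exons of Itgav overlap exons of Gm13684 on the opposite strand over 634 bases, and exons of Itgb4 overlap those of B230344G16Rik over 537 bases. The sources used here do not say whether counting used strand, so reads in those overlaps cannot be assigned to a strand.

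The promoters of 4 genes are shown because their transcripts took different courses across the groups: Itgav and Itga3 were lower after EGCG, and Itgb1 and Itgb5 stayed above the young level. The bases are those just upstream of the annotated start, 5′ to 3′ on the strand of the gene, from RefSeq promoters of GRCm38.p6. They span chr2:83724147-83724396 for Itgav, chr11:95076802-95076964 for Itga3, chr8:128685404-128685653 for Itgb1 and chr16:33829415-33829664 for Itgb5. Capitals mark GGGCGG, the GC box, on either strand. The table held promoters for 7 of the 10 genes and had no entry for Itga6, Itgb3 and Itgb4.
Itgav: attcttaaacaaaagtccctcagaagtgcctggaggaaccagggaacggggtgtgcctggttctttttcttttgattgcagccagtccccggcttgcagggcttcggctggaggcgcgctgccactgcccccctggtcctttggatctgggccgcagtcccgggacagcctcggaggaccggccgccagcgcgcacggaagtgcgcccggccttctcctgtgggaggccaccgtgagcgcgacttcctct
Itga3: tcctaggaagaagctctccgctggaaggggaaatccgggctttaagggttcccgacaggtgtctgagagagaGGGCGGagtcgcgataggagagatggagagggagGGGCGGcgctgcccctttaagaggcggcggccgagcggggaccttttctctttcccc
Itgb1: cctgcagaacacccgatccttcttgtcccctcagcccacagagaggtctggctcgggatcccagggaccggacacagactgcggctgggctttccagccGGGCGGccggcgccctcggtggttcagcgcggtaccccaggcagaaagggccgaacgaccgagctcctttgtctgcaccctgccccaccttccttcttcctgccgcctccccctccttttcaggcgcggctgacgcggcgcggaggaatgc
Itgb5: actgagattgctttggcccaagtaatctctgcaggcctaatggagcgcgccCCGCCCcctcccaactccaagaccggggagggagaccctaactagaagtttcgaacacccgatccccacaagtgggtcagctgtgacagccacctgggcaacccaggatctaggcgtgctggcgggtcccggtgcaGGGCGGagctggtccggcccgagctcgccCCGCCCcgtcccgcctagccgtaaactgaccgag

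Itga3 has 2 starts in the table, and the first is shown. Searching both strands of the 250 bases before the starts shown found no GGGCGG for Itgav, 1 for Itgb1, 3 for Itgb5 and 3 for Itga3, of which 2 lie in the stretch printed. The window of the second Itga3 start held 1 GGGCGG and 1 CCAAT, with a GC content of 50.8%. At least 1 such match was present in 32.7% of the 32851 RefSeq promoters of the same length. None of the 4 windows of the starts shown held TATAAA, the TATA box, which 12.4% of all promoters held, or CCAAT, which 33.8% held. Neither TGANTCA, the AP-1 element present in 6.75% of promoters, nor the E-box CACGTG, present in 6.02%, was found in them. The GC content of these 4 windows was 64.4% for Itgav, 67.6% for Itga3, 68.0% for Itgb1 and 65.2% for Itgb5, against a median of 52.4% over all promoters. These are matches of letters only.

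Per gene length, the integrin transcripts of the capsule were led by 3 chains. Levels are compared between genes as FPKM (fragments corrected for gene length and for the total of a library). In young controls Itgb5 stood at 89.9 ± 2.54 FPKM (SD, n = 3), Itga6 at 48.4 ± 1.90, Itgb1 at 45.1 ± 1.86, Itga3 at 10.3 ± 0.620 and Itgav at 7.91 ± 0.526. Itgb8 followed at 3.52 ± 0.321 FPKM, Itga5 at 1.49 ± 0.198 and Itga2 at 0.490 ± 0.0730. Itgb4 at 0.161 ± 0.0330 and Itgb3 at 0.113 ± 0.0513 FPKM were lowest. The order of the first 7 genes was the same in the 3 groups, and within a group neighbouring genes did not overlap between libraries, apart from Itga6 with Itgb1 and Itgb4 with Itgb3 in young controls and Itgb4 with Itga2 in aged controls.

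Among the summed FPKM of the 17 alpha chains in the table, Itga6 held 65.6% in young controls, 71.8% in aged controls and 75.7% after EGCG. Itga3 held 13.9%, 11.5% and 9.70% in the same order, and Itgav held 10.7%, 9.53% and 7.47%. Among the 8 beta chains Itgb5 held 64.6%, 67.6% and 68.2%, and Itgb1 held 32.4%, 31.0% and 30.3%. The Itgb1 shares overlapped between libraries of all 3 groups. Itgav shares overlapped between young and aged controls, and Itgb5 shares between aged controls and EGCG libraries. Relative to Itgb1, Itgb5 had a log2 change with age of 0.13, or −0.0018 with each library's trend of counts on gene length removed. Transcripts of alpha 6, beta 5 and beta 1 led the pool in each of the 3 groups.

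Library totals ran from 13184169 to 16528179 counts, where 3 counts equal 0.183 to 0.232 CPM (scaled counts, with the library total corrected by a TMM factor). Lens epithelium markers were plain in every group, with Foxe3, a transcription factor of the lens epithelium, at 105, 187 and 149 CPM in young, aged and EGCG libraries. The retina was also present: its 31 markers summed to 26326 to 26461 CPM in young controls, 2229 to 2235 in aged controls and 11943 to 12167 after EGCG. The 14 lens epithelium markers summed to 8.78%, 15.9% and 12.9% of the scaled counts and the 27 lens fibre markers to 15.3%, 22.2% and 18.0%. Both lists hold crystallin genes, Cryaa and Cryab in the first, and their part in the sums was not separated. Together with the retina sums, the marker makeup of the samples differed between the groups. In bulk RNA, fewer cells of a type and less RNA per cell cannot be told apart.

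Aged and young controls were compared first, to ask which integrin chains differ with age. Of the 9 integrin genes with enough counts to test, 6 were higher in aged controls and 1 was lower at an adjusted p under 0.05 (edgeR quasi-likelihood test, Benjamini-Hochberg over 13711 genes). Of all genes tested, 69.2% were called in this comparison, 35.4% higher and 33.8% lower, so the total of 7 called was near the background, with more of them higher and fewer lower than among all genes. The aged and young libraries did not overlap for 7 of the 9, against 72.1% of all genes tested. The median log2 fold change of the 9 genes was 0.50, against 0.02 for all genes tested.

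Itga6, the laminin-binding chain with the highest alpha level, stood at 260.1, 252 and 269.6 CPM in young controls and at 430.5, 451 and 481 CPM in aged controls. The aged libraries were all above the young ones, and the gene rose 1.74-fold (log2 fold change 0.80, SE 0.0484, adjusted p = 1.39e-19). Itgb5, the beta chain that pairs with alpha v in vitronectin receptors, was at 276, 263 and 268 CPM in young and at 459.6, 448 and 460.4 CPM in aged controls. It rose 1.69-fold (log2 0.76, SE 0.0462, adjusted p = 1.69e-19), with no overlap. Itgb1, the partner of most alpha chains listed here, was at 159, 172 and 172 CPM in young and at 251, 265 and 265 CPM in aged controls, a rise of 1.55-fold (log2 0.63, SE 0.0514, adjusted p = 4.62e-15). These 3 genes were the abundant chains, and each remained higher and called with age under the 17 alternatives run for it. The lens epithelium markers moved the same way, with 10 of 14 higher and 2 lower, against 35.4% and 33.8% of all genes. The part of these markers in the rises was not tested.

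Itgav, the alpha chain of the RGD receptors, was at 72.8, 75.7 and 65.9 CPM in young controls and at 101, 100.05 and 102 CPM in aged controls. The 3 aged libraries lay within a narrow band above the young ones, and the gene rose 1.41-fold (log2 0.50, SE 0.0651, adjusted p = 4.35e-09). Itga3, the second laminin-binding alpha chain, was at 44.8, 48.6 and 50.5 CPM in young and at 60.8, 65.1 and 63.2 CPM in aged controls, without overlap. It rose 1.31-fold (log2 0.39, SE 0.0762, adjusted p = 1.31e-05). Both calls depended on how the libraries were scaled: with library size alone Itga3 had a log2 change of 0.07 (adjusted p = 0.422), and scaled to lens fibre genes Itga3 was at −0.08 (adjusted p = 0.395) and Itgav at 0.03 (adjusted p = 0.74). With the length trend removed the changes were larger, 0.93 for Itgav (adjusted p = 1.05e-19) and 0.53 for Itga3 (adjusted p = 9.56e-09).

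Itgb8, the beta chain of an integrin that activates latent TGF-beta, was the gene that fell with age. It was at 25.6, 21.8 and 24.9 CPM in young controls and at 17.1, 15.9 and 15.5 CPM in aged controls, 1.49-fold lower (log2 −0.57, SE 0.126, adjusted p = 9.35e-05). Retina markers fell in the same comparison, 31 of 31, where 33.8% of all genes were lower, and their part in the result was not tested. With each library's trend of counts on gene length removed, the log2 change was −0.27 (adjusted p = 0.0566).

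The remaining chains had low counts. Itgb4 rose 2.65-fold (log2 1.40, SE 0.455, adjusted p = 0.00586), from 0.694, 0.997 and 1.04 CPM in young to 3.16, 2.16 and 1.94 CPM in aged controls, or 11 to 17 against 25 to 46 counts. Scaled to lens fibre genes the log2 change was 0.93 (adjusted p = 0.0662). Among 11 tested markers of corneal and surface epithelium, a source of beta 4, 5 were higher and 4 lower with age. Of all genes, 35.4% were higher and 33.8% lower, and the part of these markers was not tested. Itga5, at 5.90 ± 0.823 CPM in young and 6.68 ± 1.66 in aged controls, had a log2 change of 0.18 (95% interval −0.27 to 0.63, adjusted p = 0.479). Itga2, at 3.09 ± 0.447 and 2.67 ± 0.200 CPM, had a log2 change of −0.21 (95% interval −0.87 to 0.45, adjusted p = 0.582).

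Itgb3, a beta chain of platelets and endothelial cells that pairs with alpha v in a vitronectin receptor, had too few counts to enter the test. Its counts were 5, 10 and 14 in young controls, 2, 3 and 1 in aged controls and 7, 0 and 1 after EGCG. The young libraries were above the aged ones. Fitted with no filter on low counts, its log2 change with age was −2.01 (SE 1.08, adjusted p = 0.103). Of 19 endothelial and mural markers 13 were lower with age, where 33.8% of all genes were lower, and 2 were higher, Acta2 (log2 1.34) and Pdgfrb (log2 0.86). The 19 markers summed to 548 to 572 CPM in young and 892 to 941 CPM in aged controls. Acta2 made up most of that sum, at a mean of 293 CPM in young and 739 CPM in aged controls. The 7 platelet markers in the table summed to 3.22 to 7.46 CPM in any library. The part of either marker list in these counts was not tested.

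**Figure D1:**
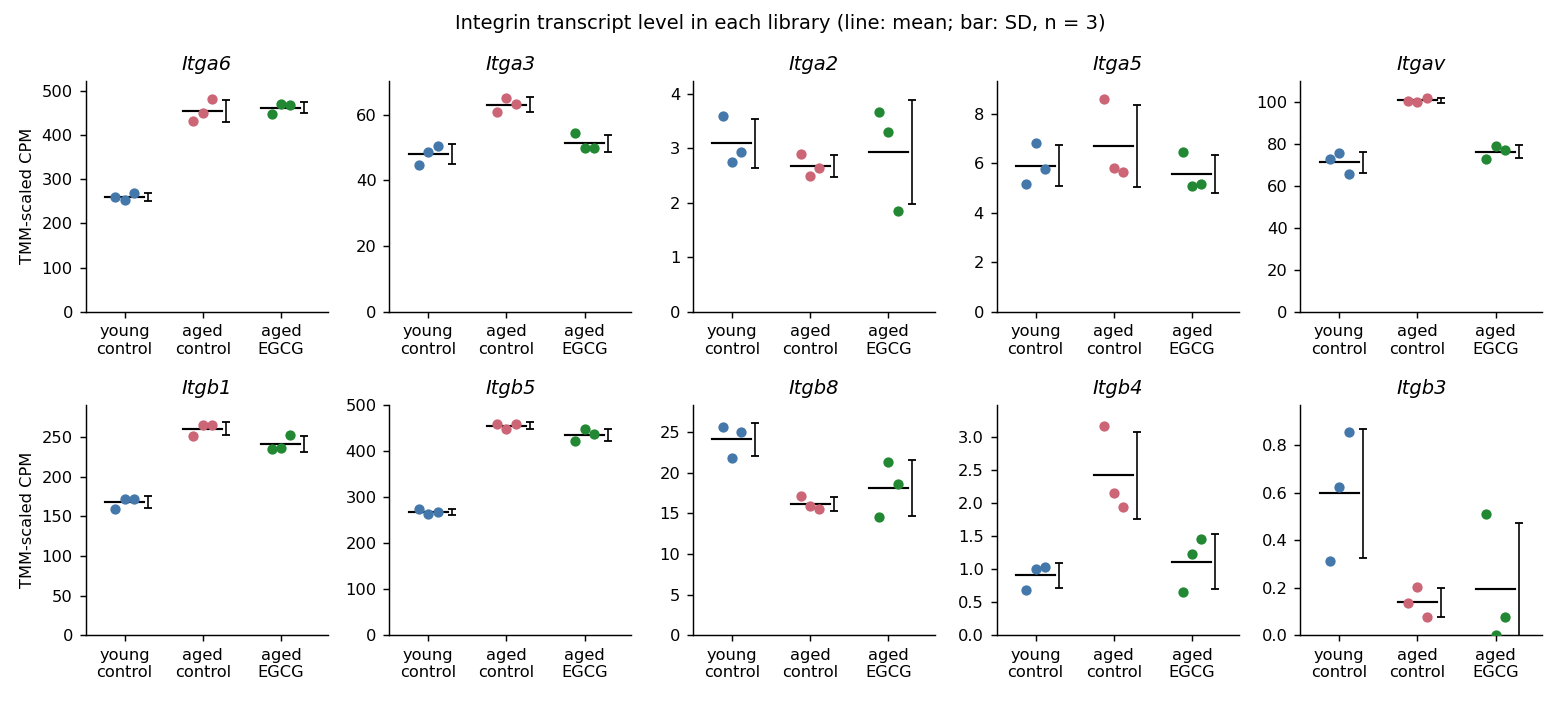
Level of each of the 10 integrin genes in each library, as TMM-scaled CPM on linear axes that start at 0, for young control, aged control and aged EGCG groups. Points are libraries, lines are group means and bars are SD over 3 libraries, cut at 0. Itga6, Itgb1 and Itgb5 stood higher in aged and EGCG libraries than in young ones, while in Itgav and Itga3 the EGCG libraries lay below the aged ones.

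Aged mice given EGCG were then compared with aged controls, to ask which chains differ with the treatment. Of the 9 genes tested, 2 were lower and none was higher (4 and 0 at an unadjusted p under 0.05, and 2 and 0 by DESeq2), where 24.1% of all genes were called, 13.8% higher and 10.3% lower, so the number called was near the background. The libraries of the groups did not overlap for 3 of the 9, against 33.5% of all genes. The median log2 fold change of the 9 genes was −0.11, against 0.00 for all genes tested. The aged controls are shared with the comparison above, so the same libraries stand on one side of both changes.

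Itgav was at 72.9, 79.0 and 77.3 CPM after EGCG against 101, 100.05 and 102 CPM in aged controls. The EGCG libraries all lay below the aged ones, a fall of 24.3% (log2 −0.40, SE 0.0654, adjusted p = 3.40e-06). It was lower and called in all 17 alternatives, with log2 changes of −0.43 to −0.20 and adjusted p up to 0.0326. Itga3 was at 54.3, 49.9 and 49.7 CPM after EGCG against 60.8, 65.1 and 63.2 CPM, also without overlap. It fell by 18.6% (log2 −0.30, SE 0.0766, adjusted p = 0.00257), but with library size alone the log2 change was −0.17 (adjusted p = 0.107), with lens fibre scaling −0.10 (adjusted p = 0.357) and in FPKM −0.16 (adjusted p = 0.144). Beside these falls, 7 of 14 lens epithelium markers were lower and 2 higher after EGCG, and 19 of 27 lens fibre markers were lower. Of the 31 retina markers 28 were higher, where 10.3% of all genes were lower and 13.8% higher. The part of these markers in the result was not tested.

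The other chains were not called. Itga6 was at 448, 470.5 and 467 CPM after EGCG, overlapping the aged controls, with a log2 change of 0.02 (95% interval −0.07 to 0.12, adjusted p = 0.771). Itgb5, at 422, 449 and 437 CPM, had a log2 change of −0.07 (95% interval −0.16 to 0.03, adjusted p = 0.336), and Itgb1, at 234, 236 and 252 CPM, one of −0.11 (95% interval −0.22 to −0.01, adjusted p = 0.105). When libraries were scaled to lens fibre genes, Itga6 at 0.22 (adjusted p = 0.000824), Itgb5 at 0.13 (adjusted p = 0.0326) and Itgb8 at 0.36 (adjusted p = 0.0287) were called higher, so the direction of Itgb5 flipped. With library size alone Itga6 was called higher as well, at 0.15 (adjusted p = 0.0216). With the length trend removed Itgb1 was called lower, at −0.13 (adjusted p = 0.0248). Itgb8 was at 14.5, 21.3 and 18.6 CPM after EGCG, with a log2 change of 0.16 (95% interval −0.10 to 0.43, adjusted p = 0.409). Itgb4 was at 0.659, 1.23 and 1.46 CPM, below the 3 aged libraries, with a log2 change of −1.11 (95% interval −2.03 to −0.20) and an adjusted p of 0.0673. Itga5 (log2 −0.27, adjusted p = 0.439) and Itga2 (log2 0.14, adjusted p = 0.82) overlapped between the groups.

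EGCG libraries were last set against young controls. Of the 9 genes, 3 were higher and 1 lower, where 63.6% of all genes were called, 32.3% higher and 31.4% lower. The groups did not overlap for 4 of the 9, against 68.3% of all genes. The median of the 9 log2 changes was 0.10, against −0.02 for all genes tested. Itga6 was 1.77-fold (log2 0.83, SE 0.0484, adjusted p = 8.12e-20), Itgb5 1.62-fold (log2 0.70, SE 0.0462, adjusted p = 7.22e-18) and Itgb1 1.43-fold (log2 0.52, SE 0.0515, adjusted p = 3.41e-12) above young controls, called under all 17 alternatives. Itgb8 was 1.33-fold below (log2 −0.41, SE 0.125, adjusted p = 0.00412), and this call was lost without EGCG library 1 (log2 −0.27, adjusted p = 0.0742) and with the length trend removed (log2 −0.11, adjusted p = 0.459). Itgav at 0.10 (95% interval −0.04 to 0.23, adjusted p = 0.201) and Itga3 at 0.10 (95% interval −0.06 to 0.25, adjusted p = 0.279) were not called. Both were negative with library size alone, −0.10 each, and with the length trend removed both were called higher, Itgav at 0.52 and Itga3 at 0.22.

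**Figure D2:**
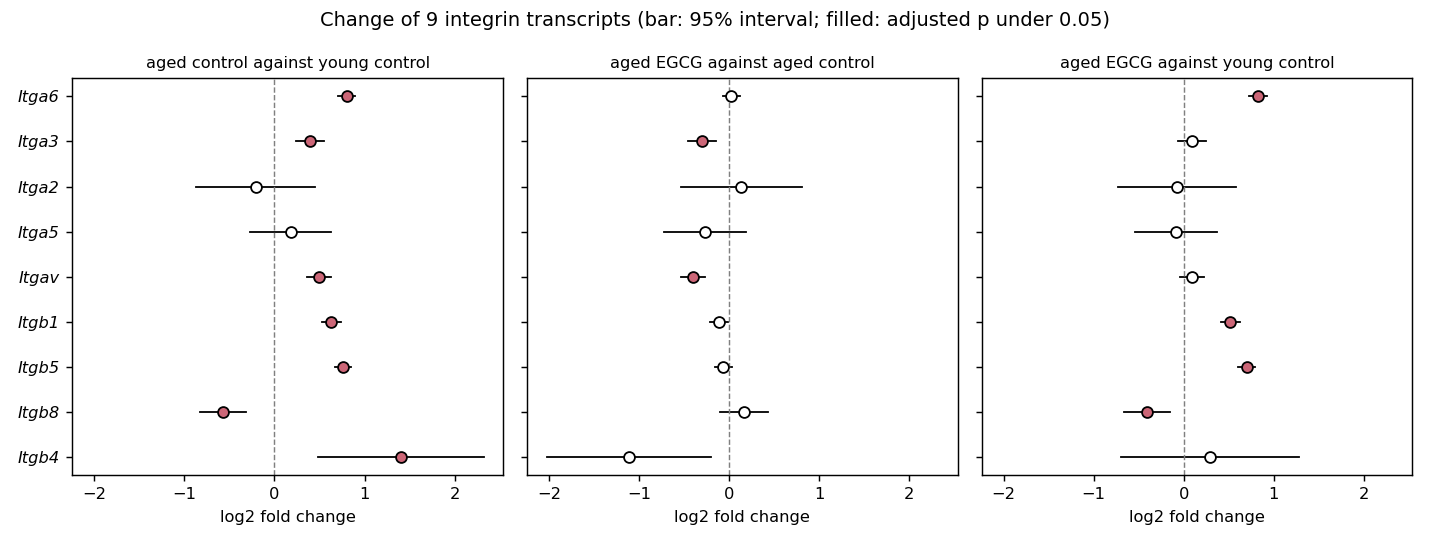
Log2 fold change of the 9 tested integrin genes in the 3 comparisons, with 95% intervals from the edgeR fit of 9 libraries. Filled points passed an adjusted p under 0.05: 7 genes for aged against young, 2 for EGCG against aged and 4 for EGCG against young.

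**Figure D3:**
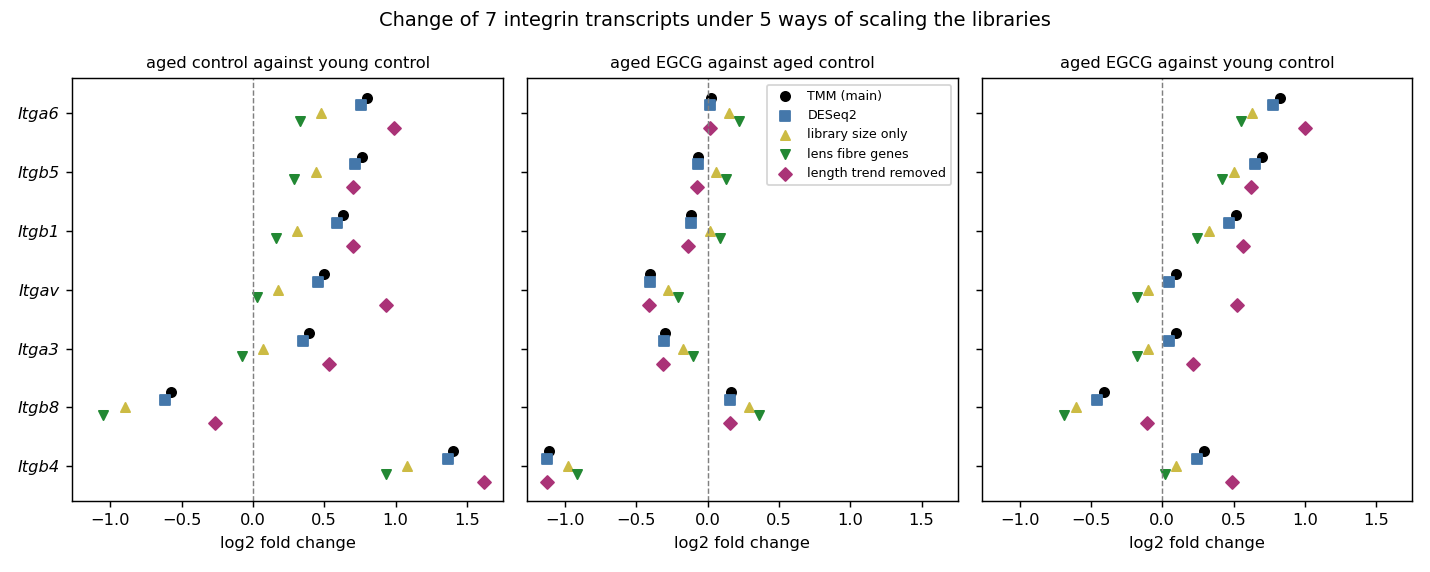
Log2 fold change of 7 integrin genes in the 3 comparisons under 5 ways of scaling the libraries. For aged against young the points of Itga6, Itgb5 and Itgb1 lie above 0 under each scaling, while Itga3 is at 0.39 with TMM factors and −0.08 scaled to lens fibre genes.

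Ratios between 2 integrin transcripts within a library do not depend on how libraries are scaled, though they still depend on any trend with gene length. Each is a ratio of FPKM, chosen after the data were seen, and with 3 libraries a side an exact permutation test could not go below 0.1, so none was run. The ratio of Itga6 to Itgb1 was 1.13, 1.01 and 1.08 in young controls, 1.19, 1.18 and 1.25 in aged controls and 1.32, 1.38 and 1.28 after EGCG. It stepped up from group to group with no overlap. The ratio of Itga3 to Itgb1 went the other way, from 0.224, 0.225 and 0.234 through 0.193, 0.196 and 0.190 to 0.185, 0.168 and 0.157.

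The ratio of Itgav to its partner Itgb5 was 0.0874, 0.0952 and 0.0815 in young controls, 0.0725, 0.0740 and 0.0735 in aged controls and 0.0572, 0.0583 and 0.0586 after EGCG. The EGCG libraries were lowest, the young ones highest, and no library of 1 group reached another group. The step from young to aged turned with the length trend removed: the difference of the fitted log2 changes of Itgav and Itgb5 was −0.26 with TMM factors and 0.24 without the trend. The step from aged to EGCG was −0.34 and −0.33. The ratio of Itgav to Itga6 had group means of 0.164, 0.133 and 0.0986. Its log2 step from young to aged was −0.30, or −0.06 without the length trend, and that from aged to EGCG was −0.43, or −0.42. Against Itgb8, the ratio of Itgav was 2.16, 2.64 and 2.004 in young controls, 4.45, 4.77 and 5.001 in aged controls and 3.81, 2.82 and 3.16 after EGCG, so it was highest in aged controls. Relative to beta 5, beta 1 and alpha 6, alpha v transcript was lower in EGCG libraries than in aged controls, without overlap.

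**Figure D4:**
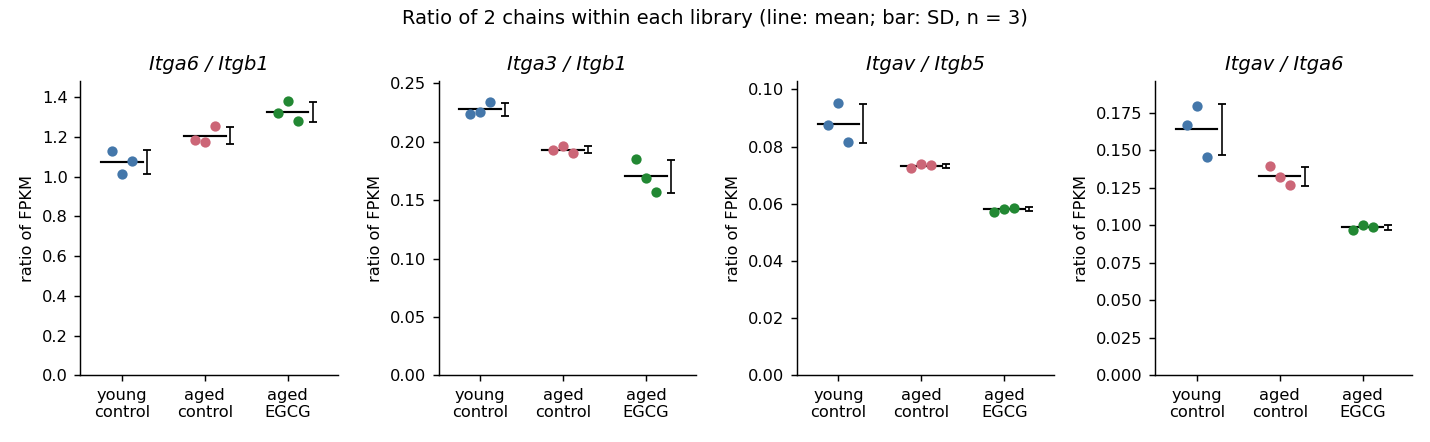
Ratios of FPKM between pairs of integrin transcripts in each library, on linear axes from 0; points are libraries, lines are group means and bars are SD over 3 libraries. The ratio of Itgav to Itgb5 falls from a mean of 0.0880 in young to 0.0733 in aged and 0.0581 in EGCG libraries, where the first step turns with the length trend removed, and that of Itga6 to Itgb1 rises from 1.07 to 1.21 and 1.33.

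The transcripts nearest to each integrin were found over the 9 libraries by the root mean square difference of log2(CPM + 0.5), centred on each gene. Over 13362 candidates, Itgb5 was nearest to Nomo1 (0.0286) and to Dkk3 (0.0315), a lens epithelium marker. Itga3 was nearest to Smco3 (0.0282) and Gng5 (0.0389). Itga6 was nearest to Arhgap31 (0.0335) and Supt5 (0.0378), Itgb1 to Ik (0.0408) and Pygl (0.0456), and Itgav to Irf2bp2 (0.0534) and Arsi (0.0577). Itgb8 had no neighbour closer than Trmt13 (0.0850). These distances are descriptions, since the libraries share groups and depth.

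The other 15 integrin chains in the table were of low level, and 9 could be tested. With age 1 was higher and 3 were lower, against 35.4% and 33.8% of all genes. Itga9, which binds tenascin and other matrix proteins, rose 2.54-fold with age, from 9.33 ± 0.122 to 23.7 ± 2.29 CPM (SD, n = 3; log2 1.34, SE 0.124, adjusted p = 2.43e-13), and was at 27.7 ± 0.947 CPM after EGCG. Itga4 fell with age, from 2.72 ± 0.138 to 0.164 ± 0.101 CPM, a level at or under that of 3 counts (adjusted p = 1.91e-07). Itga1 (log2 −1.96, adjusted p = 0.00524), a collagen-binding chain, and Itga10 (log2 −1.14, adjusted p = 0.025) also fell. Without young library 3, 1 chain was called lower. None of the 9 was called by edgeR between EGCG and aged controls, with 1 at an unadjusted p under 0.05 and none by DESeq2. Of all genes tested, 24.1% were called by edgeR in that comparison. The part of the endothelial and mural markers given above in these low chains was not tested.

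Cytoplasmic partners of integrins were higher with age in 26 and lower in 8 of 47 tested adaptors and activators (median log2 0.35), where 69.2% of all genes were called, 35.4% higher and 33.8% lower. Ilk and Parva, which form a complex at the beta 1 tail, rose from 75.7 ± 2.07 to 156 ± 5.20 CPM (log2 1.04, adjusted p = 3.49e-20) and from 81.4 ± 4.24 to 160.1 ± 4.82 CPM (log2 0.98, adjusted p = 3.96e-19). Scaled to lens fibre genes, 13 adaptors were higher and 16 lower, where 2118 of all 13711 genes were higher and 7410 lower. After EGCG 10 were lower and 2 higher against aged controls, where 10.3% of all genes were lower and 13.8% higher. Tns1 and Tns2, tensins that tie integrins to actin, fell (log2 −0.72 and −0.81, adjusted p = 3.13e-09 and 1.11e-07), as did Fermt2, the kindlin that activates beta chains (log2 −0.53, adjusted p = 1.74e-07), and Vcl, vinculin (log2 −0.55, adjusted p = 1.85e-05). With library size alone, 5 were lower and 5 higher, where 611 of all 13711 genes were lower and 3086 higher. The 2 that rose were Kank1 (log2 0.66, adjusted p = 0.000509) and Cav1 (log2 0.95, adjusted p = 0.00245), named after their values were seen.

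Among the 7 hemidesmosome and tetraspanin genes, 5 were higher and 2, Dst and Col17a1, lower with age, against 35.4% and 33.8% of all genes. The lower count was 1 without young library 1 or 2 or aged library 2 or 3. Cd151, the tetraspanin bound to alpha 3 and alpha 6, rose from 48.8 ± 0.419 to 99.4 ± 6.83 CPM (log2 1.03, adjusted p = 2.44e-18). Cd81 (log2 0.88, adjusted p = 1.72e-16), Cd82 (log2 1.15, adjusted p = 1.53e-14) and Cd9 (log2 0.69, adjusted p = 5.55e-11) rose too. Cd151 was the one gene of the list called after EGCG, at 83.7 ± 0.554 CPM (log2 −0.25, adjusted p = 0.00308), a call lost without aged library 2 and with library size alone.

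The laminin and basement membrane ligands differed after EGCG in 1 direction: 16 of 22 were lower and none was higher than in aged controls by edgeR (18 and 0 at an unadjusted p under 0.05, none higher by DESeq2; median log2 −0.31), where 10.3% of all genes were lower. Col4a1, a collagen IV chain of the capsule, fell from 2608 ± 61.6 to 2073 ± 100.1 CPM (log2 −0.33, adjusted p = 2.56e-09). Lamb2 (log2 −0.53, adjusted p = 5.00e-09), Lama3 (log2 −0.60, adjusted p = 1.93e-08) and Col18a1 (log2 −0.50, adjusted p = 2.66e-11) fell as well, so ligands of alpha 3 and alpha 6 integrins were among the genes that fell. In the same comparison 19 of 27 lens fibre markers were lower and none higher, and 28 of 31 retina markers were higher. Shares over all genes were 10.3% lower and 13.8% higher. The part of these markers in the falls was not tested. With library size alone 9 of the 22 ligands were lower and scaled to lens fibre genes 7, where 611 and 427 of all 13711 genes were lower. Against young controls the aged libraries had 8 of the 22 higher and 6 lower, against 35.4% and 33.8% of all genes. With the length trend removed 16 were higher and 3 lower, where 4605 of all 13711 genes were higher and 4546 lower. With library size alone 3 were higher and 13 lower, where 2937 of all genes were higher and 6445 lower. Without aged library 2, 3 were lower.

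Of the 17 RGD and other matrix ligands, 5 were higher and 8 lower with age, and 3 higher and 9 lower after EGCG. Of all genes 69.2% were called with age and 24.1% after EGCG, so the number called with age was near the background. Ccn2, a secreted ligand of alpha v integrins, rose with age from 80.4 ± 4.46 to 142 ± 8.36 CPM (log2 0.82, adjusted p = 1.30e-15) and was at 70.4 ± 5.71 CPM after EGCG (log2 −1.01, adjusted p = 1.28e-17). Ccn1, unlike Ccn2, was lower with age (log2 −0.51, adjusted p = 1.97e-06), and it was lower again after EGCG (log2 −0.94, adjusted p = 5.33e-11). Vtn, vitronectin, was at 268 ± 13.8, 42.4 ± 1.25 and 149 ± 3.98 CPM in young, aged and EGCG libraries, and Edil3 at 24.9 ± 2.38, 1.86 ± 0.779 and 7.30 ± 0.613. Both followed the order of the retina markers given above, and the part of the retina in these levels was not tested.

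Among the 9 genes for TGF-beta and its latent storage, 6 were higher and 1 lower with age, against 35.4% and 33.8% of all genes. Tgfb1 rose from 15.1 ± 0.829 to 37.1 ± 4.59 CPM (log2 1.30, adjusted p = 7.44e-15), Tgfb3 by log2 0.95 (adjusted p = 3.96e-15), Tgfb2 by 0.55 (adjusted p = 9.69e-12) and Ltbp2, a latent TGF-beta binding protein, by 0.85 (adjusted p = 4.26e-15). After EGCG 4 were lower, against 10.3% of all genes: Ltbp2 (log2 −0.62, adjusted p = 4.29e-10), Ltbp3 (log2 −0.41, adjusted p = 5.83e-07), Ltbp1 (log2 −0.43, adjusted p = 0.000391) and Tgfb2 (log2 −0.24, adjusted p = 0.00132). Scaled to lens fibre genes 2 were lower and 1 higher, where 427 of all 13711 genes were lower and 4389 higher. Tgfb1 and Tgfb3 are also in the RGD list.

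Other matrix receptors rose with age in 8 of 10 genes, and 1, the syndecan Sdc3, fell, against 35.4% and 33.8% of all genes. Cd44, the hyaluronan receptor, went from 191 ± 7.60 to 495 ± 26.7 CPM (log2 1.37, adjusted p = 2.71e-28) and Sdc1 from 54.7 ± 3.20 to 141 ± 4.38 CPM (log2 1.37, adjusted p = 4.45e-24). After EGCG 5 of the 10 were lower and 1 higher than in aged controls, against 10.3% and 13.8% of all genes. Sdc4, a syndecan found with integrins in focal adhesions, fell from 181 ± 11.9 to 133 ± 5.97 CPM (log2 −0.44, adjusted p = 2.52e-08), and the collagen receptor Ddr2 fell by log2 0.57 (adjusted p = 2.72e-07). Scaled to lens fibre genes 2 were lower and 5 higher, where 427 of all 13711 genes were lower and 4389 higher.

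**Figure D5:**
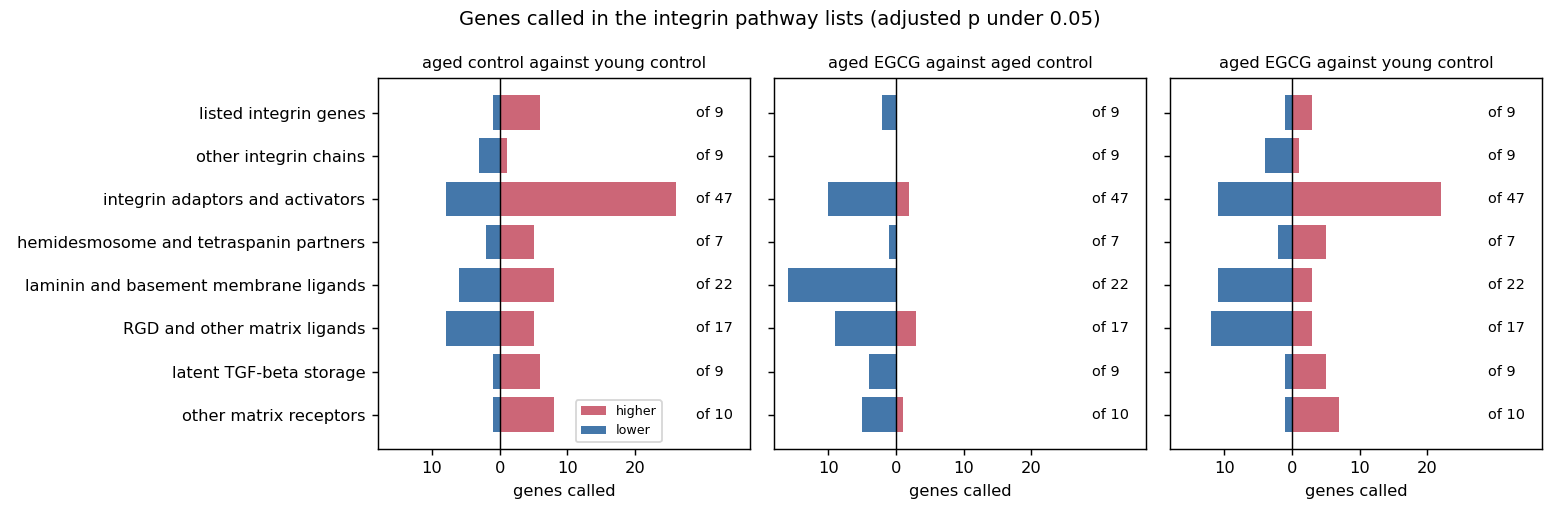
Number of genes called higher (right of 0) and lower (left of 0) at an adjusted p under 0.05 in the listed integrin genes and 7 lists of partners and ligands, for the 3 comparisons; the number tested stands at the right. After EGCG against aged controls the bars point to lower values in most lists, with 16 of 22 basement membrane ligands lower. Of all genes 10.3% were lower and 13.8% higher in that comparison, and the counts changed with the scaling of the libraries.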

How the data were processed

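RNA was sequenced from 9 anterior lens capsule samples, 3 in each of 3 groups named by the titles. Per the labels' protocols, libraries were made with a SMARTER mRNA-Seq kit. The authors deposited a table of raw counts, whole numbers for each symbol. The deposited FPKM values match counts over a fixed gene length and library total. Per the submitters' processing notes, the genome was GRCm38, also called mm10. Aligner, counter, annotation and strand setting were not given in the sources used here.

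Counts were tested by quasi-likelihood with edgeR 4.0.16 (R 4.3.3) and TMM factors, after filterByExpr, in 1 fit of 9 libraries, two-sided. Standard errors come from the change and its F statistic. The dispersion gave a biological coefficient of variation of 7.9%. Library totals of 13184169 to 16528179 counts set the depth, and 3 counts equal 0.183 to 0.232 CPM. Libraries of a group correlated with r of 0.9931 to 0.9949 across genes, and differed by more than sampling noise. The script was tested on simulated counts. DESeq2 1.42.0, limma 3.58.1 on log2(FPKM + 1), other scalings, no filter, 2 groups only, each library left out and a replicate block were tried as alternatives.

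Members and lists were chosen with earlier results of these data known. All 10 integrin genes are described. From each list up to 4 called genes with the smallest p in a comparison are named, and the 2 nearest profiles of an integrin gene. Genes that spell out a count of 5 or fewer were named after their values were seen. Coordinates come from GENCODE M21 and promoter sequences from RefSeq, both GRCm38. Within-library ratios, also with the length trend removed, were added after the data were seen. No sample was left out.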

Additional observations from a re-analysis of the deposited data

How the results depend on the processing

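Each integrin change was recomputed under 17 alternatives, 153 values a comparison, of which 141, 138 and 139 kept their direction and their side of the threshold for aged against young, EGCG against aged and EGCG against young. Scaling by library size alone put the median log2 change of all genes at −0.30, 0.12 and −0.21 in the 3 comparisons, where TMM factors gave 0.02, 0.00 and −0.02, with 2937 higher and 6445 lower with age in place of 4847 and 4635, and 3086 higher and 611 lower after EGCG in place of 1894 and 1406. Against young controls 3098 were then higher and 5575 lower in place of 4424 and 4301. With lens fibre genes as the scale, the medians were −0.45, 0.19 and −0.29, 4 integrin genes were called with age in place of 7, and 4 after EGCG (3 higher, 1 lower) in place of 2. Of all genes, 69.5% were then called with age and 35.1% after EGCG. By limma on FPKM, 1 integrin gene was called after EGCG, where 21.2% of all genes were called. The cause was not tested. For EGCG against young the number of integrin genes called was 4 and elsewhere 4 to 5. The share of all genes called there was 63.6% in the main fit. It was 51.1% with no filter and 66.0% with only the 2 groups compared.

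Log2 changes of the following genes reversed sign. With age, Itga5 was at −0.144 by library size alone, −0.292 by lens fibre genes and −0.0903 in FPKM, Itga3 at −0.0779 by lens fibre genes, and Itga2 at 0.0577 with the length trend removed. After EGCG against aged controls, Itgb1 was at 0.0138 by library size alone, 0.0837 by lens fibre genes and 0.0137 in FPKM, and Itgb5 at 0.0620, 0.131 and 0.0611. Against young controls, Itga3 was at −0.0983, −0.178 and −0.0880 and Itgav at −0.0975, −0.178 and −0.0851 by the same 3 settings, and Itga2 at 0.19 with the length trend removed.

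Leaving out 1 library at a time gave 7 to 8 integrin genes called with age, 2 after EGCG and 4 to 5 against young controls. With no library left out, 69.2%, 24.1% and 63.6% of all genes were called in the 3 comparisons. Itgb3 passed the filter in some of the fits with 1 library left out. Without young library 1 its log2 change with age was −2.32 (adjusted p = 0.0428), without EGCG library 1 −2.01 (adjusted p = 0.0444) and without EGCG library 3 −2.02 (adjusted p = 0.0493), while without aged library 3 it was −1.76 and not called (adjusted p = 0.134). Without EGCG library 1 it was called lower than in young controls (log2 −3.76, adjusted p = 0.0145). Ranges that crossed 0 were −0.0381 to 0.291 for Itga5 with age, −0.0128 to 0.0672 for Itga6 and −0.0492 to 0.381 for Itga2 after EGCG, and −0.252 to 0.174 for Itga2 and −0.203 to 0.0236 for Itga5 against young controls. The replicate block gave 7, 2 and 4 integrin genes, the same numbers as without it, where 68.9%, 24.3% and 63.4% of all genes were called. Samples sharing a number did not deviate together, with correlations of −0.0056 to 0.0329 over 9 pairs, none above 0.1. Such low correlations cannot show that same-numbered samples have nothing else in common. Counting depth limits Itgb3, Itgb4, Itga2 and Itga5, which had at most 125 counts in a library.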
